A study of Ovis aries and Bos taurus with 6 samples.

Results

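The miR-200 and miR-141 family, 5 related miRNAs named miR-200a, miR-200b, miR-200c, miR-141 and miR-429, was followed by small RNA sequencing of milk extracellular vesicles (EVs). EVs are membrane particles that cells release and that carry miRNAs. The sheep group had 3 libraries of the Ordos fine wool breed, and the cow group had 3 libraries of Holsteins, all females in mid lactation. The cows were sequenced for an earlier study by the same group, so the effects of species, of breed and of study cannot be told apart. In addition, nothing in the labels says that each cow library came from a separate animal. The p-values therefore set the difference between groups against the spread between these libraries, which may in part be technical. Vesicles were isolated from milk with a commercial precipitation kit, which does not sort them by cell of origin. Fewer vesicles from a cell type and less of a miRNA in each vesicle cannot be told apart in such bulk samples.

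Members were taken by name in both tables, and in the sheep table also by sequence. This gave 4 of 685 sheep rows and 5 of 779 cow rows. In sheep, miR-200b and miR-200c carried miRBase names, while the rows of miR-141 and miR-429 had none and were recognised by their listed sequences. No sheep row matched miR-200a, so miR-200a was not analysed here in sheep. All 5 members carried miRBase names in cow, where no sequences were used.

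The family is known as a marker of epithelial cells, the cells that line glands such as the mammary alveoli and ducts. Its members repress ZEB1 and ZEB2, transcription factors that switch off E-cadherin, so that high family levels go with cells holding an epithelial state. In mammals the members come from a pair of clusters, one holding miR-200b, miR-200a and miR-429 and the other miR-200c and miR-141. A miRNA chooses its targets mainly by its seed, bases 2 to 8 of the mature strand, and the family splits into a pair of seed groups that differ by 1 base and cut across the clusters.

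The 4 sheep sequences are shown because they decide which rows are members and which seed group each belongs to. They are given 5′ to 3′ as deposited, in DNA letters, with the seed in capitals.
miR-200b: tAATACTGcctggtaatgatg
miR-200c: tAATACTGccgggtaatgatgg
miR-429: tAATACTGtctggtaatgccg
miR-141: tAACACTGtctggtaaagatgg
With positions counted from 1 at the 5′ end, miR-200c differed from miR-200b over 21 bases by the single substitution T11G, outside the seed. Reads of this pair can be split by counting that allows 1 mismatch, so their separate values are uncertain to that extent. miR-429 differed from miR-200b by C9T, A19C and T20C, and kept its seed. miR-141 differed from miR-200b by T4C, which lies in the seed, and by C9T and T17A. The seed AATACTG stood at positions 2 to 8 of 3 of the 685 sheep rows and the seed AACACTG of 1, and no other sheep row came within 1 base of either. The partner arm of the miR-141 hairpin, catcttccagcacagtgttgg, had 1 read in sheep over the 3 libraries, against 3508 for the miR-141 strand itself.

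In the sheep gene annotation of RefSeq (assembly ARS-UI_Ramb_v3.0), MIR200A and MIR200B are direct neighbours, with TTLL10 and C12H1orf159 as the nearest coding genes to either side. MIR200C lies between PHB2 and PTPN6. MIR141 and MIR429 were not matched.

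The libraries held 1110632, 2078695 and 1073914 miRNA counts in sheep replicates 1, 2 and 3, and 328527, 556489 and 387723 in cow replicates 1, 2 and 3. Levels are given in CPM, the count divided by the miRNA total of its library and scaled alike in all libraries. A floor of 3 counts corresponds to 1.44 to 2.79 CPM in sheep and 5.39 to 9.13 CPM in cow. The most abundant row took 19.6% to 63.6% of a sheep library and 51.2% to 68.9% of a cow library. It was miR-148a, a miRNA known from lactating mammary epithelium, in every sheep library and a row without a miRBase name in every cow library. Rows with miRBase names held 41.9% to 78.1% of a sheep library and 15.8% to 29.0% of a cow library, and cow reads of the family could sit in unnamed cow rows.

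miR-200c and miR-200b, which share a seed, were well represented in sheep milk EVs and nearly absent from the named rows of cow milk EVs. For miR-200c, sheep replicates 1, 2 and 3 had 3508, 2154 and 2546 reads, or 3159, 1036 and 2371 CPM. In cow replicates 1, 2 and 3 miR-200c had 7, 2 and 17 reads, or 21.3, 3.59 and 43.8 CPM. The lowest sheep library stood far above the highest cow library. Mean levels of miR-200c were 2189 ± 1073 CPM in sheep and 22.9 ± 20.2 CPM in cow (SD, n = 3 each). It ranked 37, 42 and 34 by count among the 533, 515 and 482 sheep rows detected, and 280, 336 and 189 among the 412, 391 and 423 cow rows detected.

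miR-200b stood at 2411, 763 and 1420 CPM in sheep replicates 1, 2 and 3, on 2678, 1586 and 1525 reads. A single miR-200b read was counted in cow, in replicate 2 (1.80 CPM), and replicates 1 and 3 had none. A count of 0 there allows up to 9.13 CPM in replicate 1 and 7.74 CPM in replicate 3, well under every sheep library. Mean levels were 1531 ± 830 CPM in sheep and 0.599 ± 1.04 CPM in cow (SD, n = 3 each).

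miR-141, the member with the other seed, had 1182, 1738 and 588 reads (1064, 836 and 548 CPM) in sheep replicates 1, 2 and 3. Cow replicates 1, 2 and 3 had 4, 2 and 11 reads of miR-141, or 12.2, 3.59 and 28.4 CPM. Again the libraries of the species did not overlap, and mean levels were 816 ± 259 CPM in sheep and 14.7 ± 12.6 CPM in cow (SD, n = 3 each). Its rank was 62, 48 and 84 in sheep and 316, 336 and 237 in cow.

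miR-429, from the cluster of miR-200b, was uneven among the sheep libraries. It had 261 reads (235 CPM) in sheep replicate 1, 0 in replicate 2 and 2 in replicate 3 (1.86 CPM). In cow replicates 1, 2 and 3 it had 7, 1 and 0 reads, or 21.3, 1.80 and 0 CPM. Only sheep replicate 1 lay above all cow libraries, and the other sheep libraries fell within the cow range. A count of 0 in sheep replicate 2 allows up to 1.44 CPM.

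miR-200a, the second member with the seed of miR-141, had 92, 14 and 5 reads in cow replicates 1, 2 and 3, or 280, 25.2 and 12.9 CPM. Its exact 95% Poisson interval was 226 to 343 CPM in cow replicate 1, far from 13.8 to 42.2 CPM in replicate 2 and 4.19 to 30.1 CPM in replicate 3. It was the member with most reads in cow replicates 1 and 2, where it ranked 95 and 237, and came behind miR-200c and miR-141 in replicate 3, where it ranked 311. These intervals, like the upper limits and floors above, allow for counting error alone, because PCR copies of a read are not separate molecules.

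**Figure D1:**
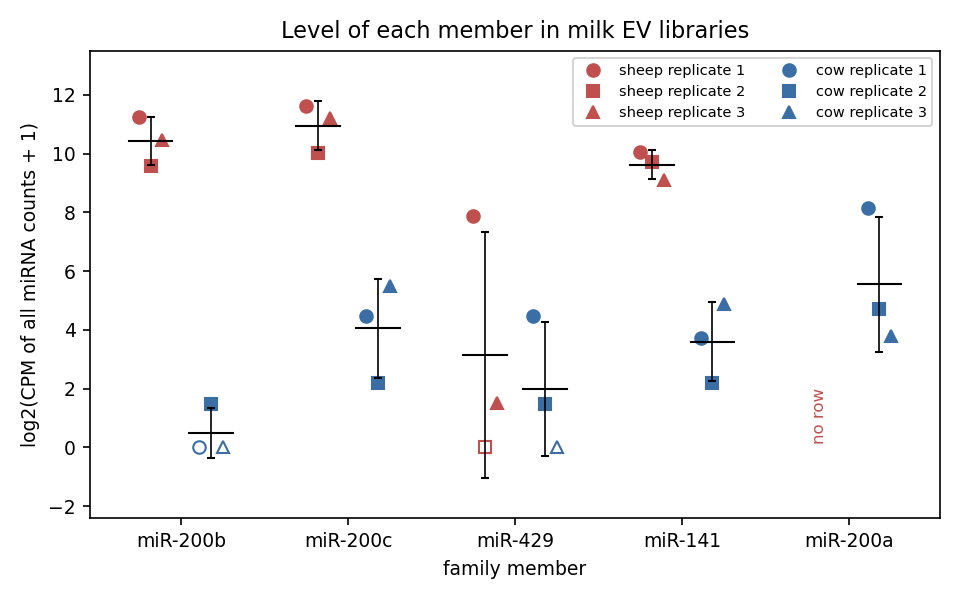
Level of each member as log2(CPM + 1) in each library (points; open symbols had 0 counts), with sheep left of cow and the mean and SD of 3 libraries as bars. miR-200b, miR-200c and miR-141 lie higher in all 3 sheep libraries than in any cow library, while miR-429 is high in sheep replicate 1 alone and miR-200a has cow values only.

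**Figure D2:**
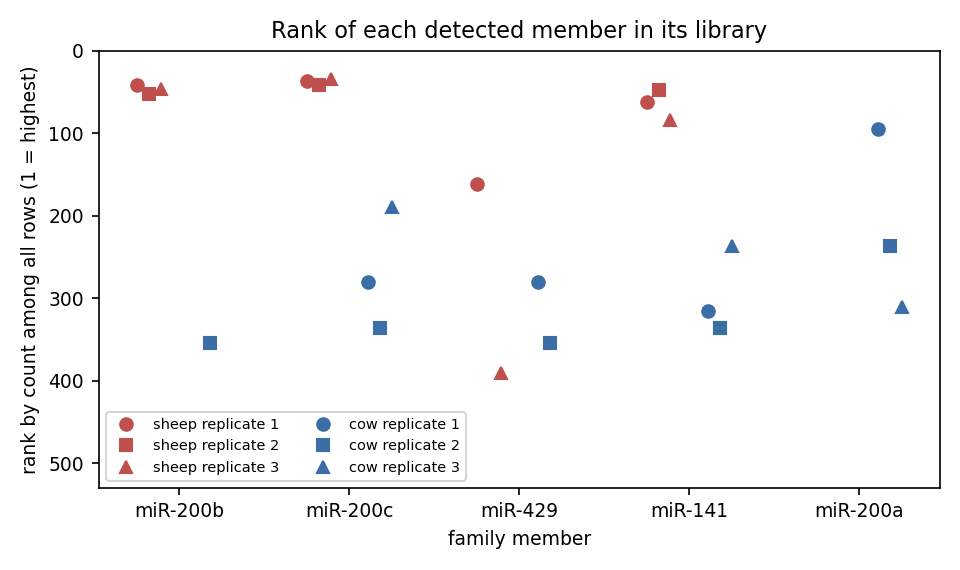
Rank of each member by count among all rows of its library, with rank 1 at the top and members at 0 counts left out. miR-200b, miR-200c and miR-141 rank between 34 and 84 in the sheep libraries and between 189 and 354 in the cow libraries.

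By means the order in sheep was miR-200c, miR-200b, miR-141 and miR-429, and the SDs of the first 3 overlap from neighbour to neighbour. These are reads per mature strand of 21 or 22 bases with no length correction, and adapter ligation favours some strands over others. Within each sheep library miR-200c exceeded miR-200b, with 1.31, 1.36 and 1.67 reads of miR-200c per read of miR-200b in replicates 1, 2 and 3. miR-141 exceeded miR-200b in sheep replicate 2 and was lower in the others. In cow the means ran miR-200a, miR-200c, miR-141, miR-429 and miR-200b. Their SDs were 85.5% to 173% of the means, so this order is uncertain.

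miR-148a took 63.6% of sheep replicate 2, the library in which miR-200b and miR-200c had their lowest CPM. With the largest row of each library left out of the total, the 3 sheep values of miR-200b came to 2999, 2097 and 2290 CPM and those of miR-200c to 3928, 2847 and 3823 CPM. Their coefficients of variation were then 19.3% and 16.9%, against 54.2% and 49.0% with all counts. miR-141 went the other way, at 1323, 2298 and 883 CPM, with a coefficient of variation of 48.2% against 31.7%.

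The difference between species was tested with edgeR's quasi-likelihood test, in which log2 fold changes are sheep over cow and p-values carry Benjamini-Hochberg adjustment over all miRNAs tested. Among the 38 miRNAs tested by miRBase name, 28.9% were called higher in sheep at an adjusted p under 0.05, and both tested members were among them. With so few cow reads, both could pass the filter on low counts through their sheep counts alone. That both were called is therefore no support beyond the fold changes themselves. The log2 fold change of miR-200b was 10.42 ± 1.14 (SE; adjusted p = 1.42e-14, edgeR), the largest fold change of the 38, though its size rests on a single cow read. That of miR-200c was 6.05 ± 0.79 (SE; adjusted p = 2.14e-11, edgeR), the third largest.

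miR-141 and miR-429 were added to the same fit through their sheep sequences, which was decided after the data were examined. Of the 39 miRNAs then tested, 28.2% were called higher in sheep, and 3 of the 3 members tested were among them. This count says nothing of the family as a whole, since members could enter through high sheep counts alone. The log2 fold change of miR-141 was 5.55 ± 0.98 (adjusted p = 0.000169, edgeR), the fourth largest fold change. In that fit miR-200b stood at 10.25 ± 1.11 and miR-200c at 6.22 ± 0.85 (adjusted p = 3.75e-06 and 1.83e-05, edgeR). miR-429 did not pass the filter on low counts, and without the filter it stood at 2.73 ± 2.06 and was not past the threshold (edgeR). Of 44 joined names 29.5% had all 3 sheep CPM values above all 3 cow values, and so had miR-200b, miR-200c and miR-141 of the 4 members compared. With TMM factors the calls over all 39 were 11 up and 9 down in sheep, and without factors they were 6 up and 13 down. limma on log2(TPM + 1), which tested all 44 names, gave 21 up and 5 down.

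As a ratio of pooled rates per miRNA count, miR-200b was 1728 times higher in sheep, with a 95% counting interval of 310 to 68273. At the sheep rate the cow totals would have held 1728 reads of miR-200b, where 1 was counted. Without cow replicate 2, which held that read, the lower limit of the 95% counting interval was 264. With 3 counts allowed to the remaining cow libraries together, the ratio of miR-200b would be 324. miR-200c was 94.2 times higher (64.3 to 144), with 26 cow reads where the sheep rate gives 2450. Leaving out cow replicate 2 gave 57.5 and leaving out cow replicate 3 gave 189 for miR-200c. miR-141 was 61.6 times higher (38.4 to 106), with 17 cow reads against 1047 at the sheep rate, and 39.3 or 121 without cow replicate 2 or 3.

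For miR-429 the pooled ratio of 9.81 (4.91 to 23.0) rested on sheep replicate 1, without which it was 0.101 (0.0104 to 0.506), and it was 58.2 without cow replicate 1. The intervals of all these pooled ratios treat reads as independent and leave out the spread between libraries. They therefore do not measure the uncertainty of a difference between species. In exact two-sided permutation tests of log2(CPM + 1), miR-200b, miR-200c and miR-141 each reached p = 0.1, the smallest that 3 libraries against 3 allow, and miR-429 gave p = 0.7. Adjusted over these 4 members they were 0.133 and 0.7.

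Other denominators kept these directions for miR-200b, miR-200c and miR-141. Scaled by the constant that underlies the TPM values, pooled ratios were 5328, 291 and 190 in that order. With the largest row of each library left out of the totals they were 1318, 71.9 and 47.0. In deposited TPM, the sheep means were 156 ± 99.9 for miR-200b, 218 ± 120 for miR-200c and 89.6 ± 46.1 for miR-141. The cow means were 0.0265 ± 0.0459 for miR-200b, 0.687 ± 0.619 for miR-200c and 0.450 ± 0.384 for miR-141 (SD, n = 3).

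**Figure D3:**
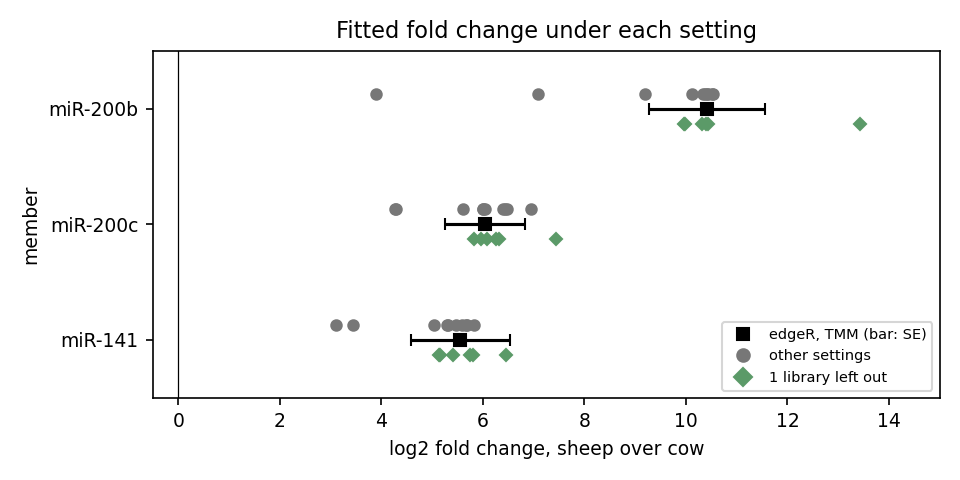
Fitted log2 fold change, sheep over cow, for the 3 members tested, with the edgeR value and its SE (black), other settings (grey) and fits with 1 library left out (green). miR-200b and miR-200c come from the join by miRBase name and miR-141 from the join with family rows added, and every value lies above 0, with a lowest value of 3.11 for miR-141.

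The whole family came to 7629, 5478 and 4661 reads in sheep replicates 1, 2 and 3, which is 0.687%, 0.264% and 0.434% of the miRNA counts. In cow replicates 1, 2 and 3 it came to 110, 20 and 33 reads, or 0.0335%, 0.00359% and 0.00851%. The means were 0.461% ± 0.213 in sheep and 0.0152% ± 0.0160 in cow (SD, n = 3 each). Since miR-200a was counted in cow alone, the cow mean without it is the closer match to the sheep members, at 0.00459% ± 0.00317.

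The make-up of the family also differed. In sheep replicates 1, 2 and 3, the members with the seed AATACTG (miR-200b, miR-200c and miR-429) made up 84.5%, 68.3% and 87.4% of the family reads, with miR-141 as the rest. In cow replicates 1, 2 and 3 that seed made up 12.7% (95% Wilson interval 7.73 to 20.2), 20% (8.07 to 41.6) and 51.5% (35.2 to 67.5). The groups did not overlap, but this turned on miR-200a, which made up 83.6%, 70.0% and 15.2% of the cow family reads. With miR-200a left out, the same seed made up 14 of 18, 4 of 6 and 17 of 28 cow reads, or 77.8%, 66.7% and 60.7%, which overlaps with sheep.

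By cluster, miR-200c and miR-141 together made up 61.5%, 71.0% and 67.2% of the family in sheep replicates 1, 2 and 3. In cow replicates 1, 2 and 3 they made up 10% (95% Wilson interval 5.68 to 17.02), 20% (8.07 to 41.6) and 84.8% (69.1 to 93.3). Cow replicate 3 lay above all sheep libraries and beyond the intervals of cow replicates 1 and 2, which overlap each other. The place of cow replicates 1 and 2 under the sheep libraries turned on miR-200a here too. With miR-200a left out, the cluster made up 11 of 18, 4 of 6 and 28 of 28 cow reads, or 61.1%, 66.7% and 100%, so that cow replicates 1 and 2 lay beside or within the sheep range.

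**Figure D4:**
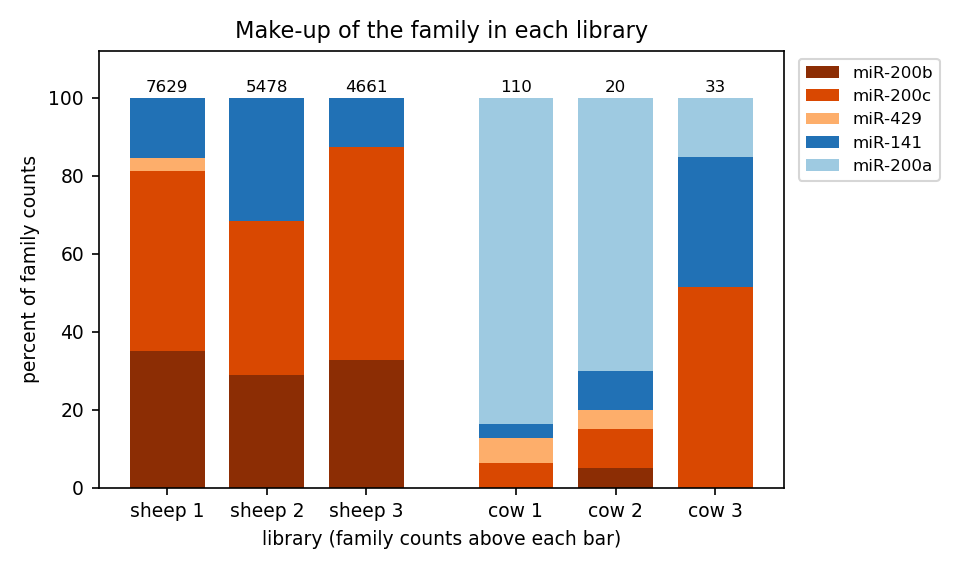
Percent of family reads taken by each member in each library, with the number of family reads above each bar and sheep left of cow. In sheep miR-200b and miR-200c fill most of each bar, while in cow miR-200a fills 83.6% and 70.0% of the bars of replicates 1 and 2 and miR-200c is the main member of replicate 3.

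Ratios of members inside a library were computed for 3 pairs, with 0.5 added to each count, and only that of miR-141 to miR-200c had reads of both members in every library. Its log2 value was -1.33 ± 0.93 in sheep and -0.45 ± 0.39 in cow (SD, n = 3 each; p = 0.3 and 0.3 after adjustment over the 3 pairs, exact permutation, two-sided). With 3 libraries a species this test cannot go below 0.1. Sheep had 0.337, 0.807 and 0.231 reads of miR-141 per read of miR-200c in replicates 1, 2 and 3, and cow had 0.571, 1.00 and 0.647, so the sheep range spanned most of the cow values.

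Against miR-200b no test is given, because cow replicates 1 and 3 had no read of it and the added 0.5 would set the ratio. Sheep had 1.31, 1.36 and 1.67 reads of miR-200c per read of miR-200b in replicates 1, 2 and 3. Cow replicate 2 had 2 reads of miR-200c and 1 of miR-200b, and cow replicates 1 and 3 had 7 and 17 reads of miR-200c beside 0 of miR-200b. miR-429 had 0.0975 reads per read of miR-200b in sheep replicate 1, where it was highest, and 0 and 0.00131 in sheep replicates 2 and 3. It had 7 reads beside 0 of miR-200b in cow replicate 1 and 1 read beside 1 in cow replicate 2, and cow replicate 3 had neither.

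Sheep replicate 1, which held nearly all miR-429 reads and the highest CPM of every member, also held more of some markers of other cells. miR-150, a lymphocyte miRNA and the only leukocyte marker named in the sheep table, was at 637 CPM there and at 30.8 and 36.3 CPM in sheep replicates 2 and 3. miR-143, a miRNA of smooth muscle, was at 6581 CPM in sheep replicate 1 and at 1513 and 1890 CPM in replicates 2 and 3. The stromal miR-199a-3p (500, 165 and 431 CPM) and the muscle miR-133 were closer between sheep replicates 1 and 3 and lowest in replicate 2, at 12.5 CPM for miR-133. Their part in the family values was not tested. miR-148a took 19.6%, 63.6% and 38.0% of sheep replicates 1, 2 and 3, and a smaller share raises the CPM of every other row. With the largest row left out of each total, miR-200b, miR-200c and miR-429 were still highest in sheep replicate 1. miR-141 was then highest in sheep replicate 2, at 2298 CPM against 1323 in replicate 1. Without sheep replicate 1, miR-200b, miR-200c and miR-141 were still called higher in sheep, by 10.44 and 6.25 in the join by miRBase name and by 5.80 with family rows added (edgeR adjusted p below the threshold in each). Between species, the stromal list summed to 1678 to 7081 CPM in sheep (2 rows) and 557 to 1284 CPM in cow (5 rows). miR-143 was called higher in sheep, with a log2 fold change of 1.57 ± 0.58 (SE; adjusted p = 0.0185, edgeR), but stood at 0.20 and was not called without normalization factors. By miRBase name its call was also lost with upper-quartile factors (edgeR adjusted p = 0.0717), with the replicate block (0.0698), without sheep replicate 2 (0.0628) and without cow replicate 1 (0.0758). The 7 cow leukocyte rows summed to 4630 to 9003 CPM. miR-150, at 30.8 to 637 CPM in sheep and 2806 to 5704 CPM in cow, was called lower in sheep, at -5.07 ± 0.65 (SE; adjusted p = 2.14e-11, edgeR). The 3 cow red blood cell rows (miR-144, miR-451 and miR-486) summed to 15303 to 27558 CPM, and no sheep row carried a name of that list. Since only 84 of 685 sheep rows had a miRBase name, sheep reads of the listed miRNAs could sit in unnamed rows. No row of any of these lists was at 0 in all libraries of its species, and their part in the difference of the family between species was likewise not tested.

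Of 11 other miRNAs known from epithelium, 1 was named in the sheep table and 8 rows were named in the cow table, so that only miR-148a was tested between species. It was higher in sheep by 8.13 ± 1.30 (adjusted p = 1.77e-08, edgeR), the second largest fold change beside miR-200b in the join by miRBase name. miR-148a was at 195857, 636087 and 379859 CPM in sheep replicates 1, 2 and 3 and at 1826, 2187 and 1037 CPM in cow replicates 1, 2 and 3. It was highest in sheep replicate 2, where miR-200b and miR-200c were lowest. Being part of the total, miR-148a lowers the CPM of all other rows by its own share. With it left out of the total, miR-200b and miR-200c were still lowest in sheep replicate 2, at 2097 and 2847 CPM. The gap was then smaller, with 2290 and 3823 CPM in sheep replicate 3.

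The other epithelial miRNAs give a scale for the low cow family levels. In cow replicates 1, 2 and 3, miR-205, known from basal and ductal epithelium, was at 146, 37.7 and 59.3 CPM, and miR-375 at 125, 128 and 25.8 CPM. miR-182 was at 33.5, 80.9 and 204 CPM, miR-183 at 15.2, 12.6 and 64.5 CPM, and miR-96 at 9.13, 44.9 and 132 CPM, all from the cluster known from sensory and other epithelia. miR-224 ran from 135 to 271 CPM and miR-31 from 2.58 to 3.59 CPM. miR-200c (3.59 to 43.8 CPM) and miR-141 (3.59 to 28.4 CPM) thus lay below or within the range of these miRNAs. miR-200b had 0 or 1 read and miR-31 had 1 or 2 reads in each cow library, so both were under the floor of 3 counts and cannot be ranked against each other. The epithelial miRNAs did not share an order over the cow libraries. miR-200c and miR-141 were highest in cow replicate 3, as were miR-182, miR-183 and miR-96. miR-200a, miR-205 and miR-224 were highest in cow replicate 1. miR-375 and miR-148a were highest in cow replicate 2 and lowest in replicate 3. The order of miR-200c and miR-141 rested on at most 17 and 11 reads in a cow library.

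Among 40 other joined miRNAs, the 3 whose log2(CPM + 1) ran most like the summed family over the 6 libraries were miR-127 (Pearson r = 0.983), let-7b (0.965) and miR-30a-5p (0.959). The 6 points share their libraries and fall into 2 species groups, so r mainly describes the gap between species. miR-127 was at 4262, 1218 and 1983 CPM in sheep replicates 1, 2 and 3 and at 426, 149 and 217 CPM in cow replicates 1, 2 and 3. In sheep miR-127 was highest in replicate 1 and lowest in replicate 2, like the family. However, miR-148a took 19.6%, 63.6% and 38.0% of the totals of sheep replicates 1, 2 and 3. A larger share of miR-148a lowers the CPM of every other row, and its part in this shared order was not tested. The family order in cow rested on miR-200a, without which its share was 0.00548%, 0.00108% and 0.00722% in replicates 1, 2 and 3, while miR-127 was highest in replicate 1.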

How the data were processed

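The authors deposited 1 table of raw read counts per species, with a row for each miRNA and a column for each library. According to the submitters' processing notes, reads were handled with cutadapt 1.14 and Bowtie. Neither genome build nor miRBase release nor counting tool is given in the sources used here. In the deposited TPM tables each count was divided by a constant of its library (9859791 to 16091056) and scaled alike, without correction for length. The meaning of that constant is not known here.

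Sheep rows without a miRBase name were taken as miR-429 where bases 2 to 8 equalled those of the sheep miR-200b row. They were taken as miR-141 or miR-200a where the seed AACACTG, the end AAAGATG or AACGATG and at least 17 bases in all matched, the bases between being read from the miR-429 row. Names shared by both tables numbered 42, or 44 with miR-141 and miR-429. Their counts were tested with edgeR 4.0.16 (TMM factors, joined miRNAs summed as library size, default filterByExpr, all 6 libraries, no block), with a threshold of 0.05. SEs were derived from each fold change and F statistic. All members are named, with the 3 miRNAs most correlated with their sum and the epithelial list. Members and lists were chosen with earlier results of these data known. The edgeR step was tested on simulated counts. The changes set there were smaller than those fitted for miR-200b, miR-200c and miR-141, so that test does not bear on their values. A wider join of sheep rows to names by sequence was planned and not run, as no table of mature sequences was used here. Alternatives used DESeq2 1.42.0, limma 3.58.1, other factors, filters and denominators, a block for the replicate number, and leaving out each library. No pair of libraries had identical values.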

Additional observations from a re-analysis of the deposited data

How the results depend on the processing

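miR-200b, miR-200c and miR-141 kept their call as higher in sheep in each of 16 other settings, with log2 fold changes of 3.90 to 13.42, 4.27 to 7.44 and 3.11 to 6.46 and adjusted p of at most 0.000349, 0.00150 and 0.0168 (edgeR, DESeq2 or limma), by miRBase name for the first pair and with family rows added for miR-141. With family rows added, adjusted p was at most 0.00597 for miR-200b and 0.00630 for miR-200c, both with the replicate block (edgeR). The lowest values came from log2(TPM + 10) for miR-200b and miR-141 and from no normalization factors for miR-200c. The 13.42 of miR-200b is the fit without cow replicate 2, where all cow counts are 0, and depends on the prior count. Same-numbered sheep and cow libraries deviated with correlations of -0.13, -0.0070 and -0.32 over 42 miRNAs. Libraries with different numbers ran from -0.36 to 0.37. With 3 libraries a species, these values cannot show whether replicate numbers pair the libraries, and nothing in the labels says that they do. With the replicate number as a block the values were 10.50, 6.46 and 5.69, and calls numbered 14 by miRBase name and 19 with family rows added, against 20 in each without it. The median fold change of the 38 miRNAs shifted by -1.75 without factors, -0.36 with upper-quartile factors, 1.87 with log2(TPM + 1) and 1.53 with log2(TPM + 10). By miRBase name 11 were called up and 9 down in sheep, which became 5 and 13, 7 and 10, 20 and 5, and 16 and 4 in these settings, of which both with TPM tested 42 miRNAs. The level difference of miR-200b on the log2 scale was 9.93, and moved to 7.04 with log2(CPM + 10) and 7.09 with log2(TPM + 1), where the larger pseudocount or smaller unit shrinks it by construction. That of miR-429 was 1.15 and reached -1.23 when sheep replicate 1 was left out and 2.71 when sheep replicate 2 was. The family share in sheep was 0.0473% of the TPM constant, 0.372% with miRBase names only, and 0.349% to 0.560% with 1 library left out. In cow it was 0.00605% without replicate 1, which held 92 of the 111 miR-200a reads. Taking the most abundant sheep row of each member changed no ratio, as each had 1 row. Cow depth limits miR-200b, miR-429 and every ratio built on them.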
